A study of Mus musculus with 6 samples.

Results

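Ret, its 4 Gfra co-receptors and 3 of their ligands were followed by mRNA sequencing in pancreas of Prox1 mutant and control mouse embryos. The 8 genes are Ret, Gfra1, Gfra2, Gfra3, Gfra4, Gdnf, Nrtn and Artn. They were chosen by family membership, with the mutant-minus-control differences of these same counts already known, and were found by symbol among 23337 symbols in the count tables. All 8 passed the filter on low counts that left 14687 genes for testing. Per the labels, 3 mutant pools came from Prox1-nullyzygous embryos (Prox1 GFPCre/D), and 3 control pools came from wildtype embryos. All embryos were of the NMRI strain and were taken at E13.5, in the middle of mouse gestation. A pool held 5 to 6 pancreata of equal genotype, and each pool gave 1 library, so a value is an average over organs and over all cell types in them. Prox1 is a homeobox gene active in embryonic pancreatic epithelium and in lymphatic vessels, and the labels do not describe the 2 mutant alleles further.

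GDNF family ligands are small secreted dimers that bind a GFRα co-receptor anchored in the cell membrane. The ligand and its co-receptor then engage RET, a receptor tyrosine kinase, which signals inside the cell. The preferred pairs are GDNF with GFRα1, neurturin with GFRα2, artemin with GFRα3 and persephin with GFRα4. In mouse embryos the system guides and sustains neural crest cells that build the enteric and autonomic nervous systems, and it drives branching of the ureteric bud. In the mouse pancreas it is known for innervation, since GDNF is needed for neural crest cells to colonise the organ and GFRα2 for its parasympathetic nerves.

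The genes lie apart in the genome. On GRCm38, GENCODE release M21 places Ret at chr6:118151745-118197718 on the minus strand and Gfra1 at chr19:58235604-58455909 on the minus strand. Gfra2 lies at chr14:70890120-70979838 on the plus strand and Gfra4 at chr2:131039632-131043088 on the minus strand. Among the ligands, Gdnf lies at chr15:7810846-7837575 on the plus strand, Nrtn at chr17:56751325-56757530 on the minus strand and Artn at chr4:117926162-117929763 on the minus strand. An antisense transcript, Gm16277, shares 416 exon bases with Gfra1, which is 7.6% of the exon bases of Gfra1. The strand setting of the counting is not given in the sources used here, so reads from that stretch cannot be told apart. The microRNA gene Mir6973b lies on the strand of Gfra4 and shares 80 of its exon bases (3.7%).

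A gene count adds up the isoforms of Ret. The long and the short annotated coding sequences share 3191 bases and then part at the end of exon 19. Both ends are shown because they code for the different tails of the receptor, which a count per gene does not separate. The long form has 157 coding bases of its own and the short form 31, stop codon included. Capitals mark the bases after the split, and the lines give GENCODE transcripts on the minus strand of GRCm38, chr6:118153853-118155316 for the long form (exons 19 and 20 of 20, with the intron between them left out) and chr6:118155256-118155316 for the short form (exon 19 of 19).
Ret, long form: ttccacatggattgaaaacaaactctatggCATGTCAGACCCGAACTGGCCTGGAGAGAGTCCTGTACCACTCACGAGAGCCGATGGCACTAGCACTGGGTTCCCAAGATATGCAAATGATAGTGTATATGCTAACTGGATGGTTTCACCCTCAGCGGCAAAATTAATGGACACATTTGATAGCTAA
Ret, short form: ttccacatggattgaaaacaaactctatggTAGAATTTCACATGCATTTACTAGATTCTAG

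Gfra1 and Gfra2 are the closest pair among the receptor genes in coding sequence, as judged by exact shared runs. Their longest shared run is 28 bases, against 10 to 12 bases for every other pair of the 5 receptor genes and 9 to 10 bases for the ligand pairs. The read length is not given in the sources used here.

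The 6 libraries held 16060424 to 17633867 counted reads, and 1 CPM (the unit used for read counts scaled to library size, with TMM factors) stood for 15.9 to 17.5 reads. Labels do not say that the pools came from separate litters, so the spread between pools may be partly technical. Prox1 itself stood at 83.6, 104.5 and 91.7 CPM in mutant pools 1 to 3 and at 105.3, 102.8 and 106.6 CPM in control pools 1 to 3, which overlap, and since the labels do not give the deleted part its count does not check the genotypes. Xist, the RNA of the inactive X chromosome, was almost absent in mutant pool 1 and control pool 3. Control pool 2 stood apart in the smooth muscle gene Myh11 (73.6 CPM, against 6.54 CPM or less elsewhere), and control pool 3 in the noradrenaline synthesis gene Dbh (8.65 CPM, against 1.04 CPM or less elsewhere).

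Of the 8 genes, edgeR called 3 at an adjusted p under 0.05, against 7.95% of all genes tested. Ret and Gfra3 were called lower in mutants, where the background of lower genes was 4.28%, and Gfra1 was called higher, where the background of higher genes was 3.67%. The genes were put together with these results in view, so the calls, fold changes and intervals for them describe the pools, and nothing is read from their number. Log2 fold changes are mutant minus control, with the standard error from the fit over all genes.

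**Figure D1:**
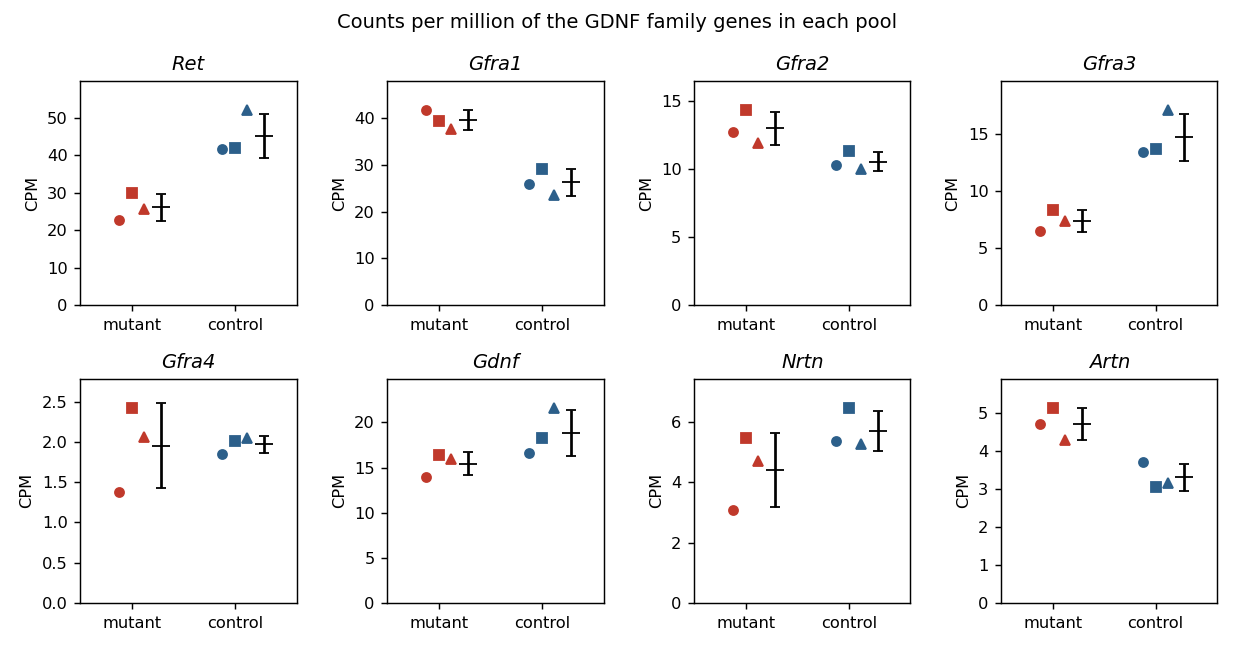
CPM (vertical axis, starting at 0) of the 8 genes in each pool, with mutant pools in red on the left and control pools in blue on the right. Circles, squares and triangles are pools 1, 2 and 3, and the black bars are mean ± SD over 3 pools. Ret and Gfra3 lie lower in all 3 mutant pools than in any control pool, and Gfra1 lies higher.

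Ret, the signalling receptor, had 361, 507 and 447 reads in mutant pools 1 to 3 and 697, 688 and 889 reads in control pools 1 to 3. These were 22.7, 29.9 and 25.6 CPM in the mutant pools and 41.6, 41.9 and 52.0 CPM in the control pools. All mutant pools lay below all control pools, and control pool 3 was the highest of the 6. The log2 fold change was -0.79 (SE 0.12, 95% interval -1.02 to -0.56), a mutant level of 0.58 times the control level. In bulk tissue, fewer Ret-expressing cells and less Ret RNA per cell cannot be told apart, and the same holds for every gene below. The log2 fold change was -0.68 without control pool 3, -0.85 without control pool 2, and -0.59 without both pools that almost lacked Xist.

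Gfra1, the co-receptor for GDNF, had 663, 671 and 657 reads in the mutant pools and 436, 479 and 404 reads in the control pools. On the CPM scale it stood at 41.7, 39.5 and 37.6 in mutants and at 26.0, 29.2 and 23.6 in controls. The groups did not overlap, and the direction was opposite to that of Ret. Control pool 3, the pool with the most Ret, had the least Gfra1. The log2 fold change was 0.59 (SE 0.085, interval 0.43 to 0.76), and it was 0.48 without both pools that almost lacked Xist.

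Gfra3, the co-receptor for artemin, has its gene at chr18:34689898-34720387 on the minus strand. It had 103, 142 and 129 reads in mutants and 225, 225 and 293 reads in controls. These were 6.48, 8.37 and 7.38 CPM in mutants and at 13.4, 13.7 and 17.1 CPM in controls. As with Ret, mutant pool 1 was the lowest and control pool 3 the highest, and the groups did not overlap. The log2 fold change of Gfra3 was -0.99 (SE 0.14, interval -1.27 to -0.72), and it was -0.79 without both pools that almost lacked Xist.

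Gfra2, the co-receptor for neurturin, had 12.7, 14.3 and 11.9 CPM in the mutant pools and 10.3, 11.3 and 9.99 CPM in the control pools. Its groups did not overlap, although the gap was narrow, and at a log2 fold change of 0.30 (SE 0.11) it was not called. Gfra4, the co-receptor for persephin, was the scarcest of the 8, with 22, 41 and 36 reads in mutants and 31, 33 and 35 reads in controls. Mutant pools 1 and 2 lay on either side of the whole control range. At this depth its log2 fold change of -0.01 (SE 0.24) had an interval of -0.49 to 0.47. A change of that size or somewhat larger, in either direction, would not have been called. Artn, at 0.51 with a smaller SE of 0.16, was not called either.

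**Figure D2:**
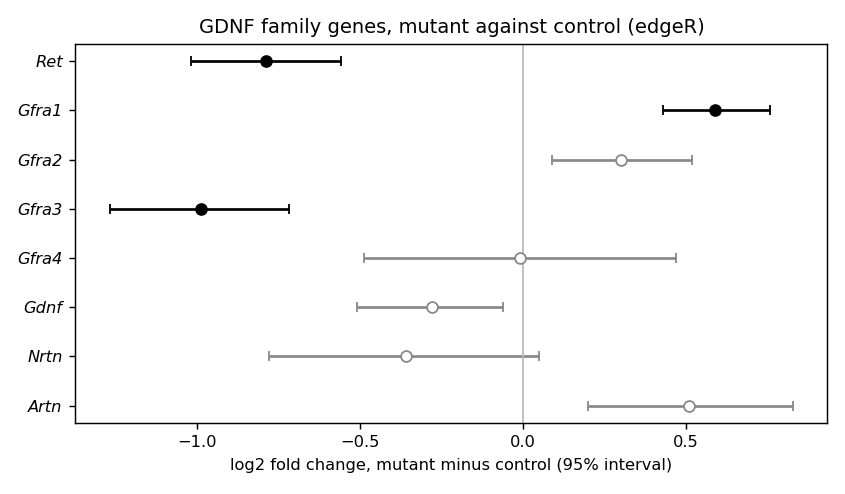
Log2 fold change of each gene, mutant minus control (horizontal axis), with its 95% interval from the edgeR coefficient and its SE. Filled black points are genes with an adjusted p under 0.05 (Ret, Gfra1 and Gfra3), and open grey points are the other 5. Ret and Gfra3 lie at -0.79 and -0.99 and Gfra1 at 0.59.

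Levels of different genes were compared per length, as TPM, which divides each count by the exon bases of its gene and scales every library to an equal total. Summed over the 4 co-receptor genes, the level was 66.1 ± 3.67 TPM in mutants and 69.6 ± 2.77 TPM in controls (SD, n = 3 each), and the pools of both groups overlapped. Their make-up differed between the groups. Gfra1 held 50.5%, 43.6% and 46.1% of the co-receptor TPM in mutant pools 1 to 3 and 31.2%, 32.7% and 25.9% in control pools 1 to 3. Gfra3 held 21.5%, 25.3% and 24.8% in mutants and 44.1%, 42.1% and 51.5% in controls. Thus the most abundant co-receptor transcript per length was Gfra1 in every mutant pool and Gfra3 in every control pool. The order in controls rests on the exon bases used, 5476 for Gfra1 and 1997 for Gfra3. In CPM, which is not divided by length, Gfra1 lay above Gfra3 in control pools 1 to 3 as well (26.0, 29.2 and 23.6 against 13.4, 13.7 and 17.1 CPM). Gfra2 held 23.6 ± 0.918% in mutants and 18.5 ± 1.37% in controls, and Gfra4 5.79 ± 1.36% in mutants and 5.66 ± 0.0437% in controls.

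The 2 called co-receptors differed in their ratio to Ret. The ratio of Gfra1 TPM to Ret TPM was 2.27, 1.63 and 1.82 in mutant pools 1 to 3 and 0.773, 0.86 and 0.561 in control pools 1 to 3. Ret was therefore below Gfra1 in every mutant pool and above it in every control pool. The ratio of Gfra3 TPM to Ret TPM varied little within a group, at 0.964 ± 0.0145 in mutants and 1.11 ± 0.0116 in controls (SD, n = 3 each). Like the fold changes, these ratios describe the pools.

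**Figure D3:**
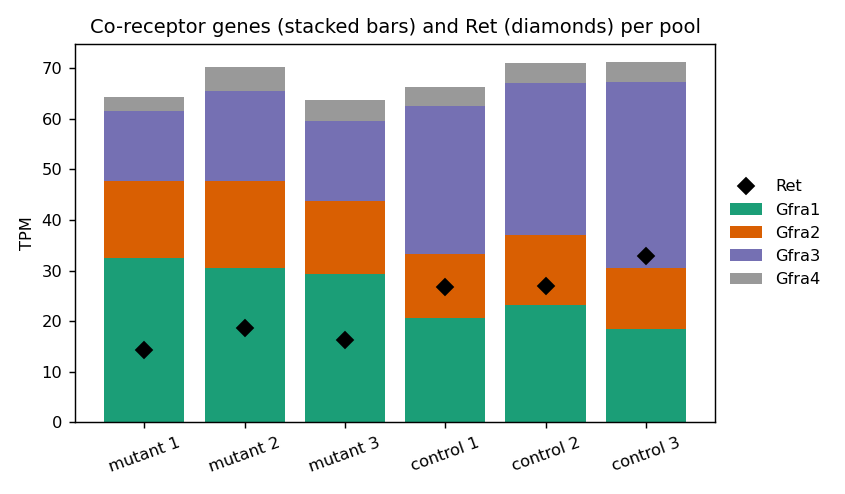
TPM per pool (vertical axis, starting at 0) of the 4 co-receptor genes as stacked bars and of Ret as black diamonds, with the 3 mutant pools on the left and the 3 control pools on the right. The bars reach similar heights in both groups, while the Gfra1 part is larger and the Gfra3 part smaller in mutants.

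Among the ligands, Artn was the only one with a higher mean in mutants. Artn, encoding artemin, stood at 4.72, 5.13 and 4.29 CPM in mutant pools and 3.70, 3.05 and 3.16 CPM in control pools. Its groups did not overlap, and with 50 to 87 reads per library it was not called, at 0.51 on the log2 scale (SE 0.16, interval 0.20 to 0.83). Artn thus lay higher in mutants while Gfra3, its preferred co-receptor gene, lay lower.

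Gdnf stood at 14.0, 16.4 and 15.9 CPM in mutants and 16.6, 18.3 and 21.6 CPM in controls. The highest mutant pool lay just under the lowest control pool. On the log2 scale Gdnf stood at -0.28 (SE 0.12), short of a call, and at -0.11 without both pools that almost lacked Xist. Nrtn, encoding neurturin, stood at 3.08, 5.48 and 4.69 CPM in mutants and 5.37, 6.46 and 5.26 CPM in controls, with overlapping groups. Its log2 fold change was -0.36 (SE 0.21, interval -0.78 to 0.05), and without mutant pool 1, its lowest pool, it was -0.16. In all, 6 of the 8 genes had no overlap between mutant and control pools, where 26.4% of all genes tested had none.

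The order of the levels per length differed between the groups. This order rests on the exon bases used, such as 1023 for Nrtn and 6763 for Ret. In CPM, Nrtn had a mean of 4.42 in mutants and 5.7 in controls. Those means lay below Ret, Gdnf and every co-receptor gene except Gfra4. In mutants, Gfra1 came first at 30.8 ± 1.55 TPM. Nrtn (18.4 ± 5.06), Gdnf (17.9 ± 1.45), Ret (16.4 ± 2.22), Gfra3 (15.8 ± 1.98) and Gfra2 (15.6 ± 1.41 TPM) followed, and each of these overlapped its neighbour in the order. Artn at 8.35 ± 0.704 TPM and Gfra4 at 3.84 ± 1.02 TPM came last and overlapped no neighbour. In controls, the order began with Gfra3 (32 ± 4.08), Ret (28.9 ± 3.43), Nrtn (24.1 ± 2.98), Gdnf (22.2 ± 2.78) and Gfra1 (20.8 ± 2.4 TPM), and these too overlapped from neighbour to neighbour. Gfra2 at 12.9 ± 0.929, Artn at 5.95 ± 0.657 and Gfra4 at 3.94 ± 0.186 TPM each stood apart. Averaged over the 6 pools, the 8 genes lay between percentile 14.5 (Gfra4) and percentile 46.3 (Gfra1) of per-length level among tested genes. These 8 genes were thus of low to middling abundance in this organ.

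Genes around the receptors were taken from 4 lists with 53 genes in all, of which 45 were tested. edgeR called 4 of them higher and 3 lower, and the median log2 fold change was 0.01, against 0.0005 over all genes tested. Of all genes tested, 3.67% were called higher and 4.28% lower, which is the background for the counts of every list below. Without control pool 2 the genes called higher numbered 10, and without mutant pool 2 those called lower numbered 1.

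Among other binding partners of the family, Ncam1 and Sorl1 rose. Of 7 genes, 4 were tested, 2 were called higher, and the median log2 fold change was 0.22. Ncam1, encoding a neural cell adhesion molecule that can bind GDNF together with GFRα1 in the absence of RET, rose to 144.0, 137.3 and 137.8 CPM in mutant pools, against 105.6, 118.3 and 107.5 CPM in control pools (log2 fold change 0.34, SE 0.053, edgeR adjusted p = 0.0056). Sorl1, encoding a sorting receptor that takes up GDNF, rose to 73.7, 75.6 and 73.5 CPM in mutants, against 61.2, 59.6 and 59.7 CPM in controls (log2 fold change 0.30, SE 0.045, edgeR adjusted p = 0.00483). Both genes lay higher in every mutant pool than in any control pool. Sdc3, encoding a heparan sulphate proteoglycan that binds GDNF, was not called at 0.12 (SE 0.054). Pspn, encoding persephin, had 1 read in mutant pool 3 and 0 in the other 5 libraries, and Gfral, the receptor gene for GDF15, had 0 in all 6.

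The adaptors and enzymes that act on RET inside the cell showed no calls. Of 25 genes, 23 were tested and edgeR called 0, with a median log2 fold change of -0.01. At an unadjusted p under 0.05, 2 were higher and 3 lower, DESeq2 called 1 higher and 1 lower, and limma voom called 0. Frs2 and Shc1, which encode docking proteins of the receptor, stood at -0.01 (SE 0.052) and -0.03 (SE 0.049), with intervals of -0.12 to 0.09 and -0.12 to 0.07. These examples were chosen after their values were seen. Dok5, encoding another docking protein, had 21, 31 and 23 reads in mutants and 13, 15 and 11 reads in controls, and at 0.93 on the log2 scale (SE 0.28) it missed the threshold.

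Genes known to respond to RET signalling in the mouse ureteric bud included Etv5 and Cxcr4, which rose while Ret was lower. Of 13 genes, 12 were tested, 2 were called higher, and the median log2 fold change was 0.16. Etv5, an ETS transcription factor gene that also responds to FGF signalling, rose to 63.1, 65.4 and 60.2 CPM in mutant pools, against 24.8, 28.1 and 37.2 CPM in control pools (log2 fold change 1.06, SE 0.13, edgeR adjusted p = 0.00147). Cxcr4, the receptor gene for the chemokine CXCL12, rose to 33.2, 34.6 and 31.0 CPM in mutants, against 16.8, 16.6 and 16.1 CPM in controls (log2 fold change 1.00, SE 0.071, edgeR adjusted p = 0.000143). Each was at about 2 times its control level, with ratios of 2.09 and 1.99, in every mutant pool above every control pool. Etv4, the close relative of Etv5, stood at 11.2, 12.8 and 11.5 CPM in mutants and 4.90, 10.1 and 8.06 CPM in controls. It was not called at 0.63 (SE 0.22), although it was called without control pool 2 (edgeR adjusted p = 0.0301) and with DESeq2 (adjusted p = 0.0467). Without control pool 1, its lowest pool, Etv4 stood at 0.39 (edgeR adjusted p = 0.193). Spry2, a feedback inhibitor gene of receptor tyrosine kinases, was not called at 0.36 (SE 0.098, edgeR adjusted p = 0.0587), and it was called with DESeq2, with robust estimation, with no filter on low counts and without control pool 2 (adjusted p = 0.0181 to 0.0499).

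Transcription factor genes known to act upstream of Ret included Phox2a and Sox10, which fell. Of 8 genes, 6 were tested, 3 were called lower, and the median log2 fold change was -1.01. Phox2a, a homeobox gene of autonomic neurons, fell to 0.943, 0.707 and 0.973 CPM in mutant pools, against 2.03, 3.65 and 5.26 CPM in control pools (log2 fold change -2.05, SE 0.37, edgeR adjusted p = 0.0108). Sox10, the regulator of neural crest and glia, fell to 7.23, 5.66 and 4.23 CPM in mutants, against 10.5, 12.5 and 10.2 CPM in controls (log2 fold change -0.96, SE 0.19, edgeR adjusted p = 0.0154). Without mutant pool 2, the calls of Phox2a (edgeR adjusted p = 0.0533) and Sox10 (0.062) were lost. Hoxb5, a homeobox gene of gut and crest, stood at 0.07 (SE 0.079). Pax3 had at most 1 read in any library and Nkx2-1 had 0 in all.

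**Figure D4:**
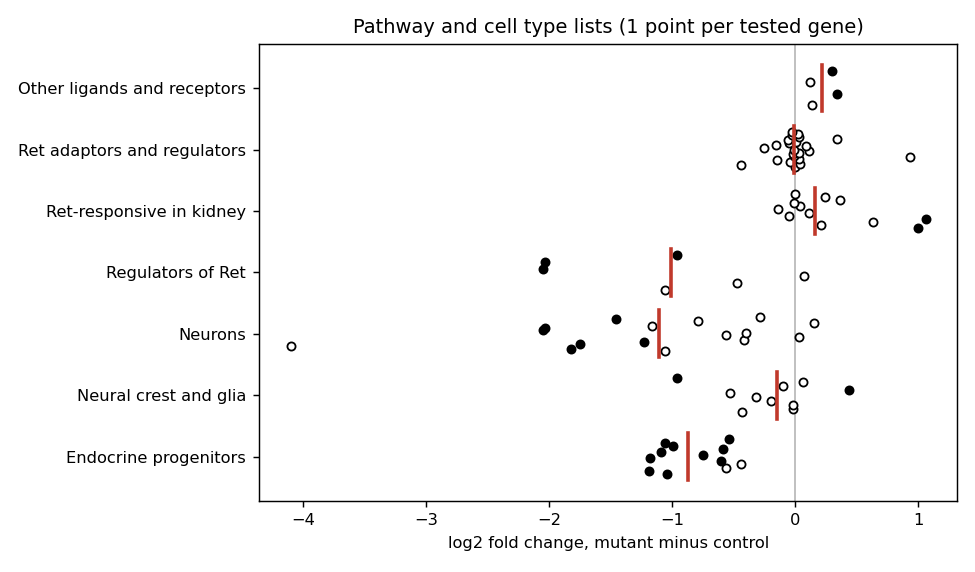
Log2 fold change, mutant minus control (horizontal axis), of each tested gene of the 4 pathway lists and of 3 cell type lists. Filled points have an edgeR adjusted p under 0.05, open points do not, and red bars are list medians. Adaptors cluster near 0, while regulators of Ret, neuron genes and endocrine progenitor genes have medians of -1.01, -1.11 and -0.87.

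Some markers of neural and endocrine cells fell, the direction of Ret and Gfra3. Of 16 neuron markers, all tested, 6 were called lower, and the median log2 fold change was -1.11. Their summed level was 398.9 to 466.2 CPM in mutants and 468.1 to 663.1 CPM in controls. The highest sum was that of control pool 3, with 468.1 and 530.4 CPM in control pools 1 and 2. Hand2, which was not called at 0.03 (SE 0.1), made up a mean of 167.4 CPM of the sum in mutants and 163.8 CPM in controls. Besides Phox2a, Chrna3, a nicotinic receptor subunit gene of autonomic neurons, fell by 1.82 on the log2 scale (SE 0.31, edgeR adjusted p = 0.00868), and Tubb3, a neuronal tubulin gene, fell by 1.46 (SE 0.26, edgeR adjusted p = 0.00991). Neuron markers called lower numbered 4 without mutant pool 2. Of 10 markers of neural crest and glia, Sox10 was called lower and Ngfr, a neurotrophin receptor gene also found in mesenchyme, was called higher (log2 fold change 0.44, SE 0.11, edgeR adjusted p = 0.0398). The glial summed level was 175.2 to 206.3 CPM in mutants and 186.8 to 208.7 CPM in controls, and the Ngfr call was lost without control pool 1, control pool 3, mutant pool 1 or mutant pool 2 (edgeR adjusted p = 0.0922 to 0.146).

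Of 12 endocrine progenitor markers, all tested, 10 were called lower, with a median log2 fold change of -0.87. Their summed level was 331.9 to 364.8 CPM in mutants and 519.4 to 681.6 CPM in controls, without overlap. Neurog3, which commits progenitors to the endocrine lineage, fell to 66.6, 68.5 and 62.0 CPM in mutant pools, against 143.0, 112.4 and 162.8 CPM in control pools (log2 fold change -1.09, SE 0.12, edgeR adjusted p = 0.00105). Btbd17 changed by -1.19 (SE 0.13, edgeR adjusted p = 0.000981) and Myt1, a zinc finger gene of endocrine progenitors, by -1.18 (SE 0.13, edgeR adjusted p = 0.00106). Several neuron markers, such as Tubb3 and Elavl4, are also expressed in endocrine cells. The part of neural and of endocrine cells in the lower Ret and Gfra3 levels was not tested.

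Of 11 mesenchymal markers, all tested, 2 were called higher, and the median log2 fold change was 0.17. The summed level was 6758.5 to 7695.9 CPM in mutants and 5945.3 to 6168.8 CPM in controls. The collagen genes Col1a1 and Col3a1 made up most of it, at means of 2245.8 and 4173.4 CPM in mutants and 1806.3 and 3414.1 CPM in controls. Of the 11 genes, 3 had a negative log2 fold change, namely Tlx1 (-0.42), Foxf1a (-0.21) and Nkx3-2 (-0.18). Acta2 stood at 0.01. Col1a1, a fibrillar collagen gene, changed by 0.31 (SE 0.066) and Barx1, a homeobox gene of gut mesenchyme, by 0.39 (SE 0.099), and both calls were lost without control pool 1, control pool 3 or mutant pool 2, that of Col1a1 also without mutant pool 1 and that of Barx1 also without mutant pool 3 (edgeR adjusted p = 0.059 to 0.158). Among epithelial markers, 1 of 8 was called higher and 2 lower, with a median of -0.21. Krt19, a ductal keratin gene, rose by 0.61 on the log2 scale (SE 0.061, edgeR adjusted p = 0.000687), and Cdh1, encoding E-cadherin, fell by 0.42 (SE 0.074, edgeR adjusted p = 0.01). The part of mesenchyme in the higher Gfra1 level was not tested.

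Markers of nearby organs that express Ret did not behave alike. Of the 9 kidney and adrenal markers, 4 were tested, 1 was called higher and 1 lower, and the median log2 fold change was 0.95. Six2, a kidney progenitor gene, had 57, 75 and 33 reads in mutants and 19, 28 and 13 reads in controls, without overlap, and at 1.45 on the log2 scale (SE 0.38, edgeR adjusted p = 0.0501) it was not called. The ureteric and kidney genes Pax2 and Pax8 had at most 4 reads in any library, and the adrenal medulla gene Pnmt had 0 in all. Lhx1, a LIM homeobox gene that ureteric bud and some neurons express, changed by -1.46 (SE 0.21, edgeR adjusted p = 0.00371), and Cyp11a1, encoding the first enzyme of steroid synthesis, by 2.32 (SE 0.25, edgeR adjusted p = 0.00098). Cyp11a1 stood at 8.55, 8.54 and 7.90 CPM in mutants and 2.09, 0.914 and 1.99 CPM in controls. The summed level of this list was 14.5 to 17.1 CPM in mutants and 9.82 to 10.5 CPM in controls. Cyp11a1 made up a mean of 8.33 CPM of it in mutants and 1.66 CPM in controls. Star, of the same list, was not called at 0.44 (SE 0.29). Nr5a1 had 16, 10 and 6 reads in mutants and 8, 20 and 6 reads in controls. For gut, whose wall holds Ret-positive enteric neurons, the intestinal gene Cdx2 had at most 4 reads in any library, and the list stood at 7.44 to 10.3 CPM in mutants and at 7.83 to 85.4 CPM in controls. The highest value was that of control pool 2, with 1209 reads of Myh11 and 94 of Sox2. The part of neighbouring tissue in the levels of Ret and its co-receptors was not tested.

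The genes whose profile over the 6 pools lay nearest to Ret were sought among the 13232 tested genes whose average log2 CPM reached 1 or more. Likeness was the root mean square difference of log2(CPM + 0.5) values, each gene centred on its own mean. Nearest to Ret were Dnajc6, Gadd45a, Irx2, Tmem27 and Mia2, at 0.049 to 0.074 on the log2 scale. Dnajc6, encoding the clathrin-uncoating protein auxilin, stood at 4.09, 5.30 and 4.18 CPM in mutants and 7.22, 7.67 and 9.12 CPM in controls. Tmem27, encoding collectrin of beta cells and kidney, stood at 42.2, 47.9 and 46.3 CPM in mutants and 73.1, 68.7 and 90.3 CPM in controls. Gadd45a is a growth arrest gene and Irx2 a homeobox gene, and all 5 shared with Ret a highest value in control pool 3.

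Nearest to Gfra1 were St8sia2, Fam198b, Lmcd1, Tgfb3 and Gem, at 0.057 to 0.067. St8sia2, encoding an enzyme that adds polysialic acid to the Ncam1 protein, stood at 67.5, 67.0 and 62.6 CPM in mutants and 47.3, 51.3 and 38.7 CPM in controls. Tgfb3, encoding a TGF-beta ligand, stood at 40.5, 38.6 and 33.9 CPM in mutants and 26.6, 26.8 and 21.4 CPM in controls. As for Gfra1, control pool 3 held the lowest value of each of these 5 genes. The profiles contain the difference between the groups, so likeness over 6 pools largely means a like fold change.

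**Figure D5:**
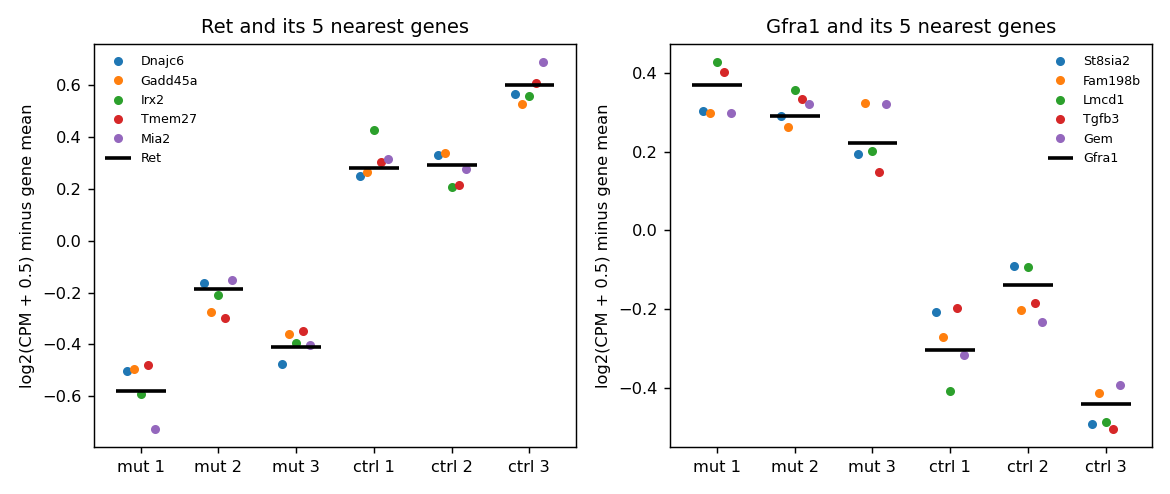
Log2(CPM + 0.5) minus the gene's own mean (vertical axis) in each pool, mutant pools 1 to 3 on the left and control pools 1 to 3 on the right of each panel. Black bars are Ret (left panel) or Gfra1 (right panel), and coloured points are the 5 genes with the smallest root mean square difference from it. The points lie close to the bars in every pool, low in mutants for Ret and high in mutants for Gfra1.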

How the data were processed

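The authors deposited raw read counts per gene symbol, 1 table for each of 6 libraries. The submitters' processing notes name cutadapt 1.13, STAR, HTSeq 0.6.1p1, DESeq2 and build mm10, without role or order. Which annotation and strand setting were used is not given in the sources used here. From the deposited counts, edgeR 4.0.16 (R 4.3.3) tested mutant against control with the quasi-likelihood F test and genotype as the only term, after filterByExpr (minimum count 10) and TMM scaling. P-values were adjusted over all 14687 genes by Benjamini-Hochberg, with calls at adjusted p under 0.05. Standard errors are the coefficient over the square root of F. The 95% intervals are the coefficient ± 1.96 standard errors. The value 1.96 is a normal quantile, so with 6 libraries these intervals may be too narrow. TPM used GENCODE M21 exon bases, for 22856 of 23337 symbols (97.9%). Coding sequences came from GENCODE.

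The genes, the lists and the alternatives were chosen with earlier results of these data known. Named were the 8 genes, up to 3 called genes per list with the smallest adjusted p, a fixed set (Pspn, Gfral, Ncam1, Sdc3, Sox10, Neurog3, Etv4, Etv5, Spry2, Prox1) and the nearest genes. Some genes under this rule and a sequence are not reported here. Others named were chosen after their values were seen. The lists were other binding partners, adaptors, RET-responsive genes, regulators of Ret, and markers of neurons, crest and glia, endocrine progenitors, epithelium, mesenchyme, gut, and kidney and adrenal. Alternatives were other scalings and filters, DESeq2 1.42.0, limma voom (limma 3.58.1), robust estimation, the replicate number as a block and left-out pools.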

Additional observations from a re-analysis of the deposited data

How the results depend on the processing

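Ret, Gfra1 and Gfra3 kept their direction and their call in all 16 alternatives, with log2 fold changes of -0.90 to -0.59, 0.48 to 0.67 and -1.09 to -0.79. Gfra2 (0.23 to 0.36), Artn (0.45 to 0.60), Gdnf (-0.37 to -0.11) and Nrtn (-0.54 to -0.16) kept their direction and were called in none. Gfra4, near 0, changed sign, with 0.21 without the pools that almost lacked Xist and -0.19 to 0.18 over the fits that left out 1 pool (0.00, 0.02 and 0.18 where the sign changed). The pathway genes called higher numbered 7 with DESeq2, and those called lower numbered 5 with DESeq2, total-count scaling, robust estimation or the filter of 1 CPM in 3 libraries. Leaving out 1 pool gave 4 to 10 pathway genes higher and 1 to 4 lower, 4 to 8 neuron genes lower and 9 to 11 endocrine progenitor genes lower. Over all genes, leaving out 1 pool gave 629 to 1421 calls, 282 to 696 higher and 343 to 725 lower. Without both pools that almost lacked Xist there were 665 calls, 315 higher and 350 lower. The cause of these changes was not tested, and the fits that left pools out also had fewer pools. Of the other 34 genes under the naming rule, none changed direction, 34 of 544 gene and alternative pairs lost a call and 7 gained a call. Whether equal replicate numbers mark paired samples was not settled. Correlations of deviations from the group means were 0.14, 0.10 and -0.05 for equal numbers and -0.23 to 0.16 for unlike numbers. With the replicate block, 4 pathway genes were higher and 3 lower, 7 neuron genes were lower, and Ret, Gfra1 and Gfra3 stood at -0.79, 0.59 and -0.99. Pspn and Gfral lay under the filter on low counts, so a difference in them was not detectable at this depth.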
